A study of Mus musculus with 2 samples.

Results

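Mitochondrial fatty acid oxidation and ketone body metabolism was followed here through 32 genes, matched by symbol to the 69691 rows of the deposited gene tables. The genes were chosen by their known place in the pathway: fatty acid activation, carnitine-dependent entry, beta-oxidation, electron transfer and ketone bodies. All 32 had a row, and together they carry 145 annotated transcripts.

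In this pathway a fatty acid is first joined to coenzyme A, then passed to carnitine so that it can cross the inner mitochondrial membrane. In the matrix it is shortened in repeated rounds of dehydrogenation, hydration, a further dehydrogenation and thiolysis, and electrons leave through electron transfer flavoprotein. Liver turns much of the resulting acetyl-CoA into ketone bodies during fasting and exports them, since hepatocytes make little of the enzyme that activates them for use.

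The RNA came from the liver of 1 female C57BL/6J mouse of 10 weeks, with no treatment or diet given in the labels. PolyA RNA was sequenced as 2 libraries of this animal, named library 1 and library 2 here after their technical replicate numbers. Library 2 is dated May 2015 and library 1 has no date, so library and date cannot be told apart. With 1 animal, an SD over the libraries (n = 2) is technical spread, and a test sets the reads of 1 library against those of the other, not conditions.

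Expected counts, the estimated number of reads or fragments per gene, summed to 23309905 in library 1 and 19525500 in library 2. The mitochondrial genome's own transcripts made up 40.7% of TPM in library 1, against 14.9% in library 2. TPM, the deposited unit of level, is a length-normalised share of all transcripts. All 6 hepatocyte markers listed had at least 1 TPM in both libraries. They summed to 29852 TPM in library 1 and 69707 TPM in library 2, while stellate or fibroblast markers summed to 169 TPM and 157 TPM. Blood markers summed to 138 TPM in library 1 and 2054 TPM in library 2, and their part in the differences below was not tested. The highest were the globin genes Hba-a2 (75.3 TPM and 772 TPM) and Hbb-bs (52.4 TPM and 756 TPM). Those that are not globin genes were low: Ptprc (3.16 TPM and 2.94 TPM), Cd79a (0.17 TPM and 1.28 TPM) and Cd3e (0.21 TPM and 0.36 TPM). In bulk tissue, fewer cells of a type and less RNA per cell cannot be told apart. A difference between the libraries is given as the log2 fold of library 2 over library 1 on TMM-scaled counts. Calls needed both a log2 fold of 1 or more in either direction and, in a two-sided exact binomial test, an adjusted p under 0.05.

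The pathway was well represented in both libraries. Of the 32 genes, 29 had at least 1 TPM in both, against 39.4% of 21461 nuclear protein-coding genes. Cpt1b, Slc22a4 and Acot2 were below 1 TPM in library 1 only. Among the 1000 highest nuclear protein-coding genes were 19 of the 32 in library 1 and 23 in library 2. Summed over the 32 genes the level was 2705 TPM in library 1 and 5399 TPM in library 2. As a share of nuclear protein-coding TPM the sum was 0.720% and 0.732%, or 0.726% ± 0.00866 (SD, n = 2).

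**Figure D1:**
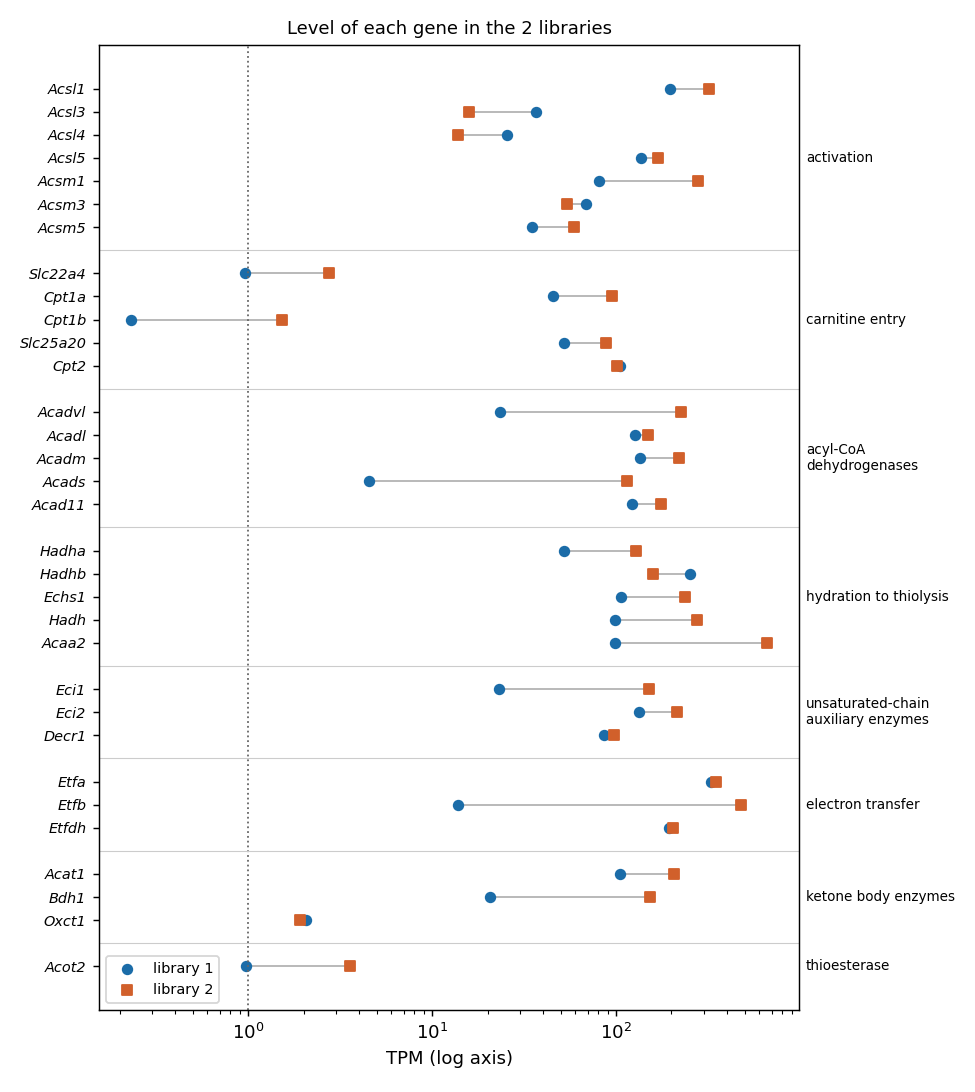
TPM of each of the 32 genes (log axis) in library 1 (circles) and library 2 (squares), grouped by step, with 1 TPM dotted. In library 2, 26 genes had the higher TPM, and Cpt1b, Slc22a4, Oxct1 and Acot2 were the 4 lowest in both libraries. TPM was generally higher in library 2: the median log2 TPM ratio was 0.76 for the 32 genes and 0.84 for all tested genes.

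Single genes differed more between the libraries than the summed share. Between the libraries 7 of the 32 genes were called higher in library 2 (32.7% of the 12728 tested genes were) and 3 were called lower (23.8% of tested genes). The genes called higher were Cpt1b, Acadvl, Acads, Acaa2, Eci1, Etfb and Bdh1, and those called lower were Acsl3, Acsl4 and Acsm3. All 32 genes had an adjusted p under 0.05, the largest being 0.0268 for Slc22a4 in the exact binomial test, as had 83.8% of all tested genes, so the size of the fold decided each call. Scaling by total counts instead gave 15 genes higher (41.9% of tested genes) and 1 lower, Acsl4 (7.49% of tested genes). The ratio of deposited TPM, by fold alone with no test, gave 14 higher (46.4% of tested genes) and 1 lower, Acsl3 (2.64% of tested genes). The median log2 fold was 0.05 for the 32 genes and 0.04 for all tested genes. The median size of the log2 fold was 0.73 for the 32 genes and 1.15 for all tested genes.

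**Figure D2:**
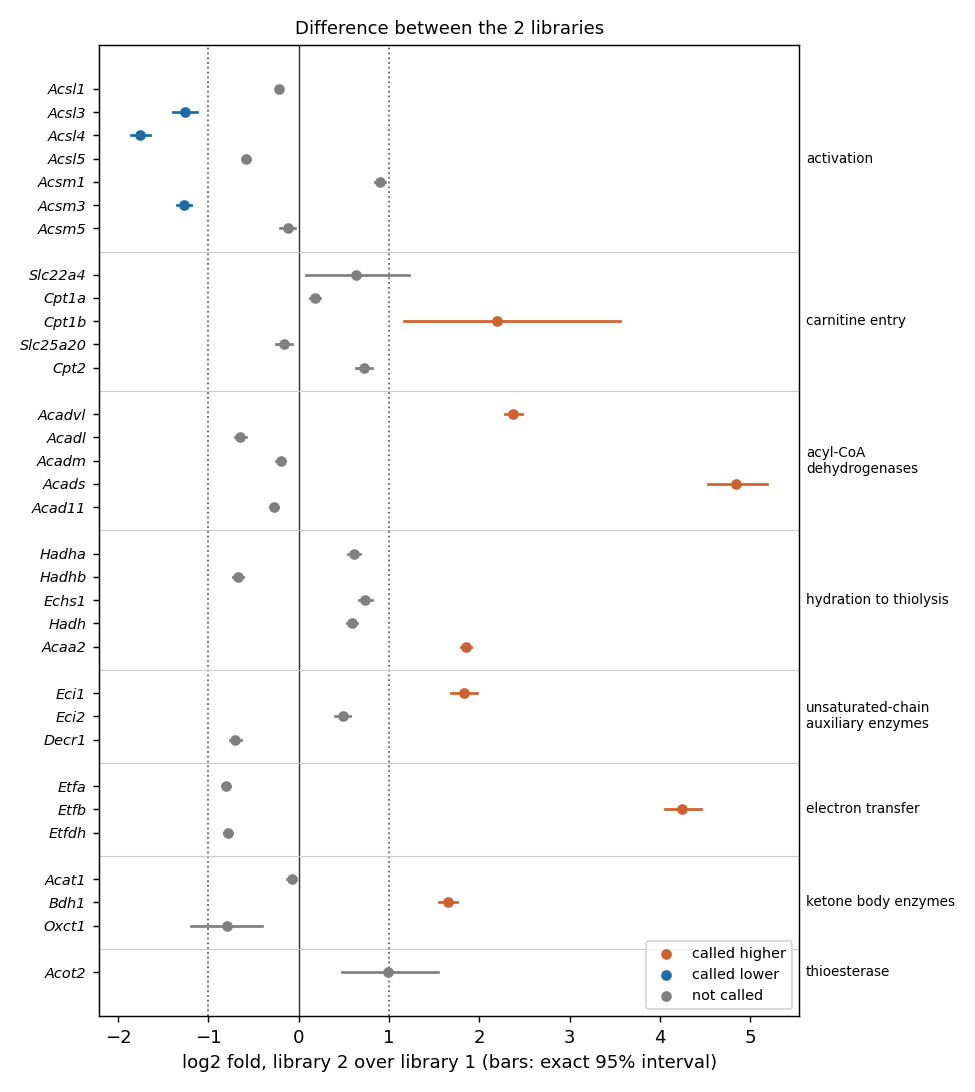
Log2 fold of library 2 over library 1 for each gene, with exact 95% binomial intervals that cover counting error only, and dotted lines at a log2 fold of 1 in either direction. Acads and Etfb stand at 4.84 and 4.25, and 22 genes lie between the lines.

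Of the 7 acyl-CoA synthetases, which activate fatty acids, 3 were called lower in library 2 (23.8% of tested genes were) and none higher (32.7%). With the GC curve described below subtracted, none was called: Acsl3 stood at -0.13, Acsl4 at -0.11 and Acsm3 at 0.068. With total-count scaling Acsl4 alone was called lower, and Acsm1 was called higher (1.48). Acsl1, the main long-chain synthetase of liver, had 197 TPM in library 1 and 318 TPM in library 2. Its log2 fold on scaled counts was -0.22. Acsl5, another long-chain synthetase, had 137 TPM and 169 TPM, with a log2 fold of -0.58. In both libraries Acsl1 was therefore the highest of the long-chain enzymes, at 1.45 times the TPM of Acsl5 in library 1 and 1.89 times in library 2.

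Acsl3, a long-chain synthetase linked to lipid droplets, had 36.5 TPM in library 1 and 15.8 TPM in library 2, a log2 fold of -1.26. Acsl4, which prefers arachidonate (ENSMUSG00000031278.8, GRCm38 chromosome X, 142317993 to 142390535, minus strand), had 25.4 TPM and 13.8 TPM. Its log2 fold of -1.75 (95% interval -1.86 to -1.65) was the lowest of the 32 genes. By the same TPM, Acsl3 and Acsl4 lost rank, from 1295 to 3913 and from 1709 to 4321 among nuclear protein-coding genes. Acsl3-204, a transcript of 502 bases, held 18.7 TPM of the Acsl3 level in library 1 and 0 in library 2. With short transcripts, defined below, left out, Acsl3 had 17.7 TPM in library 1 and 15.8 TPM in library 2. Its log2 fold on scaled counts was then -1.10. Acsl4 had 25.0 TPM and 13.8 TPM with short transcripts left out.

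Of the 3 medium-chain synthetases, Acsm3 alone was called. Acsm1 had 80.2 TPM in library 1 and 277 TPM in library 2, with a log2 fold of 0.90 that missed the call. Acsm3 had 68.9 TPM and 53.9 TPM, a log2 fold of -1.27. Acsm5 had 34.7 TPM and 58.9 TPM, with a log2 fold of -0.12. The TPM of Acsm1 was 1.16 times that of Acsm3 in library 1 and 5.14 times in library 2. Acsm3 shares 39.7% of its exonic bases with Eri2 on the opposite strand, and no source used here says whether counting used strand. Eri2 held 218 counts in library 1 and 98 in library 2, beside 3784 and 1963 for Acsm3.

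Carnitine entry rested on 3 well expressed genes. Cpt1a, the liver form of carnitine palmitoyltransferase 1 and the regulated gate of the pathway (ENSMUSG00000024900.4, GRCm38 chromosome 19, 3322334 to 3385733, plus strand), had 45.5 TPM in library 1 and 95.3 TPM in library 2. Its log2 fold was 0.18 (95% interval 0.12 to 0.24). Slc25a20, the carnitine-acylcarnitine carrier of the inner membrane, had 52.1 TPM and 87.6 TPM, a log2 fold of -0.16. Slc22a4, a transporter of organic cations at the plasma membrane, had 41 counts in library 1 and 80 in library 2 (0.96 TPM and 2.76 TPM).

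Cpt1b, the muscle form of the same enzyme (ENSMUSG00000078937.4, GRCm38 chromosome 15, 89416405 to 89425863, minus strand), had 0.23 TPM in library 1 and 1.53 TPM in library 2. Behind these stood 8 and 48.4 expected counts. The log2 fold was 2.20 with a wide 95% interval of 1.17 to 3.55 (exact binomial test, adjusted p = 3.65e-06). Cpt1a exceeded Cpt1b 198-fold in library 1 and 62.3-fold in library 2, in TPM. None of the 7 muscle markers reached 1 TPM in either library; they summed to 0.15 TPM in library 1 and 1.63 TPM in library 2, with Myh4 and Myh7 at 0. The part of muscle RNA in the Cpt1b level was not tested. In GENCODE M21, Cpt1b shares 81.4% of its exonic bases with Gm44502 on the same strand, so its counts depend on the annotation used.

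The coding sequences of the liver and muscle forms are similar at their start. The first 90 coding bases follow, 5′ to 3′, from GENCODE M21, with capitals at the 25 positions that differ.
Cpt1a: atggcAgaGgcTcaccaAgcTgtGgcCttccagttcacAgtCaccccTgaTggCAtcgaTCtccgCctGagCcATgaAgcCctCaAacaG
Cpt1b: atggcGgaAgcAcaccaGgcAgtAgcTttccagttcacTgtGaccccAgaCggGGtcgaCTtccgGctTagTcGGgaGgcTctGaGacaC
Over the aligned coding sequence 66.2% of 2307 bases were identical. The deposited posterior SD of the count was 0 for Cpt1a in both libraries. For Cpt1b it was 1.59 on 8 counts in library 1 and 7.23 on 48.4 in library 2. The neighbouring gene Chkb had the same SDs, 1.59 on 504 counts and 7.23 on 929. The interval and p given for Cpt1b do not cover this uncertainty.

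Cpt2, which returns the acyl group to coenzyme A inside the mitochondrion (ENSMUSG00000028607.12), was the 1 gene of the 32 with a lower TPM but a higher scaled count in library 2. Its TPM was 105 in library 1 and 101 in library 2, while its expected counts were 1525 and 3146 and its log2 fold 0.72. With the GC curve described below subtracted, that log2 fold was -0.21. The tables divide it between transcripts of very different length. Cpt2-206, a transcript of 634 bases typed as retained intron, held 79.9 TPM in library 1 and 1.39 TPM in library 2. Of its bases, 615 lie in exons of Cpt2-201. The full-length Cpt2-201, of 2372 bases, held 8.80 TPM and 89.1 TPM. With transcripts shorter than 50% of the one with the longest coding sequence left out, the log2 fold of Cpt2 was 2.45 and it was called higher. That alternative was chosen after the isoform shares had been seen, as the third of 3 definitions tried. The first, transcripts typed as protein-coding, gave 1.83 and the second, transcripts of at least 50% of the longest, gave 2.45. Under the third, the transcripts left out held 71.2% of the Cpt2 counts in library 1 and 4.49% in library 2. The higher fold therefore follows from what was left out.

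Of the 5 acyl-CoA dehydrogenases, which open each round of oxidation, 2 were called higher (32.7% of tested genes were) and none lower (23.8%). The genes called were those for the longest and the shortest chains. Acadvl, for very long chains (ENSMUSG00000018574.10, GRCm38 chromosome 11, 70010183 to 70015411, minus strand), had 23.3 TPM in library 1 and 226 TPM in library 2. Its log2 fold was 2.38 (95% interval 2.28 to 2.47). Acads, for short chains (ENSMUSG00000029545.9, GRCm38 chromosome 5, 115110299 to 115119346, minus strand), had 4.51 TPM and 114 TPM. With 81 and 2923 counts its log2 fold of 4.84 (95% interval 4.53 to 5.19), or 28.7-fold, was the highest of the 32 genes, and it was 1.24 once the GC curve described below was subtracted. Acadvl shares 42.9% of its exonic bases with Dvl2 on the opposite strand, which held 3 and 72 counts.

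The genes for long and medium chains were not called. Acadl had 126 TPM in library 1 and 149 TPM in library 2, a log2 fold of -0.65. Acadm, whose human counterpart is the common site of medium-chain deficiency, had 134 TPM and 221 TPM, a log2 fold of -0.20. Acad11, a further member of the family, had 122 TPM and 176 TPM, a log2 fold of -0.27. The order of the genes therefore depended on the library: the TPM of Acadvl was 0.185 times that of Acadl in library 1 and 1.51 times in library 2.

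The first 120 coding bases of the genes with the highest and the lowest fold show how unlike they are in base composition. They are from GENCODE M21, 5′ to 3′, taken from the coding transcript with the highest mean share, with G and C in capitals.
Acads: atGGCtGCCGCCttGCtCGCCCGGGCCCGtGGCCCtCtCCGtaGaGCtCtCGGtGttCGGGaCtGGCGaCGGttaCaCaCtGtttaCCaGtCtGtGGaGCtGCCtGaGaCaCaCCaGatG
Acsl4: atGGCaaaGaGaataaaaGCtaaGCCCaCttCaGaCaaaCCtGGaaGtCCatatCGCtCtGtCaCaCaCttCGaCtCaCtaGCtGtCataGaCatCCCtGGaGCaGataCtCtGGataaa
G or C stood at 76 of the 120 bases in Acads and at 54 in Acsl4. Over the transcript with the longest coding sequence the GC content was 60.1% for Acads and 39.0% for Acsl4, the highest and the lowest of the 32 genes.

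The steps from hydration to thiolysis carried the largest share of the 8 steps, 0.162% of nuclear protein-coding TPM in library 1 and 0.198% in library 2. In library 1 that place rested on short transcripts: over long transcripts alone the step summed to 471 TPM, below activation at 558 and electron transfer at 529. The sum of 471 TPM still holds 56.6 TPM of an Echs1 transcript of 803 bases. Echs1, the short-chain enoyl-CoA hydratase, had 106 TPM and 237 TPM, a log2 fold of 0.74. Hadh, the hydroxyacyl-CoA dehydrogenase for shorter chains, had 98.4 TPM and 275 TPM, a log2 fold of 0.59. Acaa2, the thiolase of the matrix, had 98.9 TPM and 663 TPM, a log2 fold of 1.85. It was the highest of the 32 genes in library 2, at rank 151 of nuclear protein-coding genes, and at rank 519 in library 1.

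Hadha and Hadhb encode the subunits of the trifunctional protein, which works on long chains. Hadha (ENSMUSG00000025745.7, GRCm38 chromosome 5, minus strand) had 51.8 TPM in library 1 and 128 TPM in library 2, a log2 fold of 0.61. Hadhb (ENSMUSG00000059447.9, the plus strand) had 253 TPM and 158 TPM, a log2 fold of -0.67. The TPM of Hadha was 0.205 times that of Hadhb in library 1 and 0.811 times in library 2. In library 1, Hadhb-207, a transcript of 425 bases typed as retained intron, held 135 TPM of the Hadhb level, and it held 0 in library 2. Of its bases, 346 lie in exons of the protein-coding Hadhb-203.

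The genes lie head to head, and the bases between their M21 starts are shown because partner subunits share them. In RefSeq the starts lie 273 bases apart, so these bases are only part of the interval there. The stretch is chr5:30155163-30155247, plus strand, from the RefSeq promoter table (GRCm38.p6), with GGGCGG in capitals.
Hadha-Hadhb: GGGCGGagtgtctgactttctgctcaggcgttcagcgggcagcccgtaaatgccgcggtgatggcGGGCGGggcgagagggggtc
GGGCGG, searched on both strands, was in 19 of 30 promoters of the 28 matched genes (35.7% of all 32851 promoters hold it). CCAAT was in 14 of 30 (37.4% of all) and AGGTCA in 5 of 30 (16.3% of all). The direct repeat AGGTCANAGGTCA, which contains AGGTCA, was in 0 of 30 (0.0396% of all). A match is a description of these letters in windows of 300 bases.

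**Figure D3:**
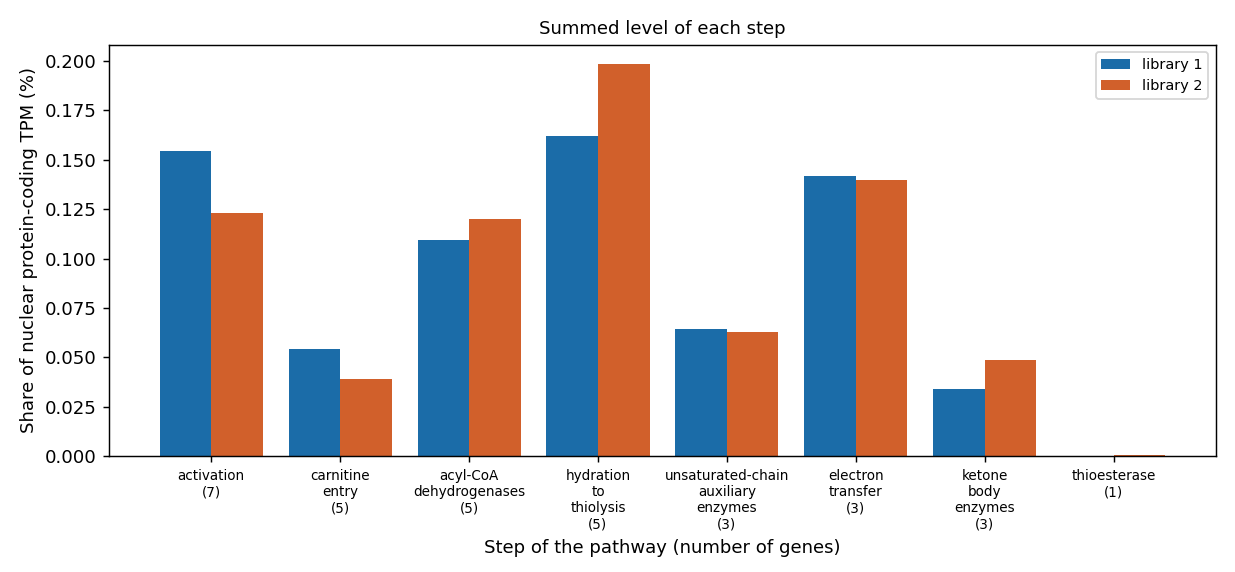
Summed TPM of each step as a share of nuclear protein-coding TPM in library 1 and library 2, with the number of genes in brackets. Over all transcripts hydration to thiolysis was highest in both libraries, at 0.162% and 0.198%; over long transcripts it was below activation and electron transfer in library 1.

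Unsaturated fatty acids need auxiliary enzymes. Eci1, an enoyl-CoA isomerase, had 23.0 TPM in library 1 and 151 TPM in library 2, a log2 fold of 1.83. Eci2, its relative, had 133 TPM and 214 TPM, a log2 fold of 0.49. Decr1, the dienoyl-CoA reductase, had 86.2 TPM and 97.7 TPM, a log2 fold of -0.70. The TPM of Eci2 was 5.80 times that of Eci1 in library 1 and 1.42 times in library 2.

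Electron transfer flavoprotein collects electrons from the dehydrogenases, and its subunits had very unlike log2 folds. Etfa, the alpha subunit (ENSMUSG00000032314.10, GRCm38 chromosome 9, 55454508 to 55512243, minus strand), had 326 TPM in library 1 and 350.3 TPM in library 2. Its log2 fold was -0.80, but 0.10 by the TPM ratio and 0.036 with the GC curve subtracted. Etfb, the beta subunit (ENSMUSG00000004610.3, GRCm38 chromosome 7, 43444083 to 43457800, plus strand), had 13.8 TPM and 476 TPM. Its counts of 209 and 4976 gave a log2 fold of 4.25 (95% interval 4.05 to 4.46), or 19.0-fold, and 1.63 with the GC curve subtracted. The TPM of Etfa was 23.7 times that of Etfb in library 1 and 0.736 times in library 2. Etfdh, which passes the electrons to ubiquinone, had 193 TPM and 203 TPM, a log2 fold of -0.79. In M21, Etfb shares 53.0% of its exonic bases with Gm45233 on the same strand.

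The first 120 coding bases of the partner subunits are printed the same way, with G and C in capitals.
Etfa: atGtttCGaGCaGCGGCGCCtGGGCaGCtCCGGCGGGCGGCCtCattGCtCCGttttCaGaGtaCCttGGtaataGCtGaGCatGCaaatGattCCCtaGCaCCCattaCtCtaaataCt
Etfb: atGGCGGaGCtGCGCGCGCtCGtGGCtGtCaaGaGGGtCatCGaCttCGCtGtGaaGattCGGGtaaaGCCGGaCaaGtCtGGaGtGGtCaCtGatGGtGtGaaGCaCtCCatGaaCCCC
G or C stood at 64 of the 120 bases in Etfa and at 70 in Etfb. Over the coding sequence the content was 45.4% for Etfa and 57.5% for Etfb.

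Of the 3 ketone body genes, Bdh1 alone was called, as higher (32.7% of tested genes were). Acat1, the mitochondrial acetoacetyl-CoA thiolase, had 104 TPM in library 1 and 206 TPM in library 2, a log2 fold of -0.08. Bdh1, which reduces acetoacetate to beta-hydroxybutyrate, had 20.6 TPM and 153 TPM, a log2 fold of 1.66. With the GC curve described below subtracted, the Bdh1 fold was 0.66 and not called. Oxct1, the transferase that lets other tissues use ketone bodies, had 2.05 TPM and 1.90 TPM. Its log2 fold was -0.79 on 133 and 96 counts (exact binomial test, adjusted p = 6.54e-05). Acat1 exceeded Oxct1 50.9-fold in library 1 and 108-fold in library 2, in TPM.

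Acot2, a mitochondrial thioesterase that splits acyl-CoA again, had 0.97 TPM in library 1 and 3.56 TPM in library 2. Its log2 fold of 0.99 (exact binomial test, adjusted p = 9.09e-05) lay just under the threshold of 1, and without a count minimum it was 1.03 and called. Its near copy Acot1 had 9.55 TPM and 32.2 TPM. The coding sequences are identical at 95.6% of 1236 aligned bases, and the deposited posterior SD of the Acot2 count was 0.61 on 44.4 in library 1 and 4.14 on 110.3 in library 2.

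The folds followed the GC content of the transcripts. Across the 32 genes, which share both libraries, Spearman's rho of log2 fold and GC content was 0.955 and Pearson's r was 0.921. Across 12656 tested genes rho was 0.880 and r was 0.827. The 7 genes called higher had GC contents from 52.8% to 60.1%, and the 3 called lower from 39.0% to 43.2%. None of the 12 genes between 45% and 50% GC was called, nor were 9 of the 14 between 50% and 55%. The share of all tested genes called within these bands was not computed. After subtraction of a loess curve fitted to fold and GC content, 3 genes were called higher, Acadvl, Acads and Etfb, and 0 lower by the exact binomial test (8.94% of tested genes in each direction). The log2 fold that remained was 1.09 for Acadvl, 1.24 for Acads and 1.63 for Etfb, now the highest, and that of Acsl4 was -0.11. With GC content taken from the longest transcript instead, 2 were called higher and 0 lower (10.2% and 9.11% of tested genes).

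**Figure D4:**
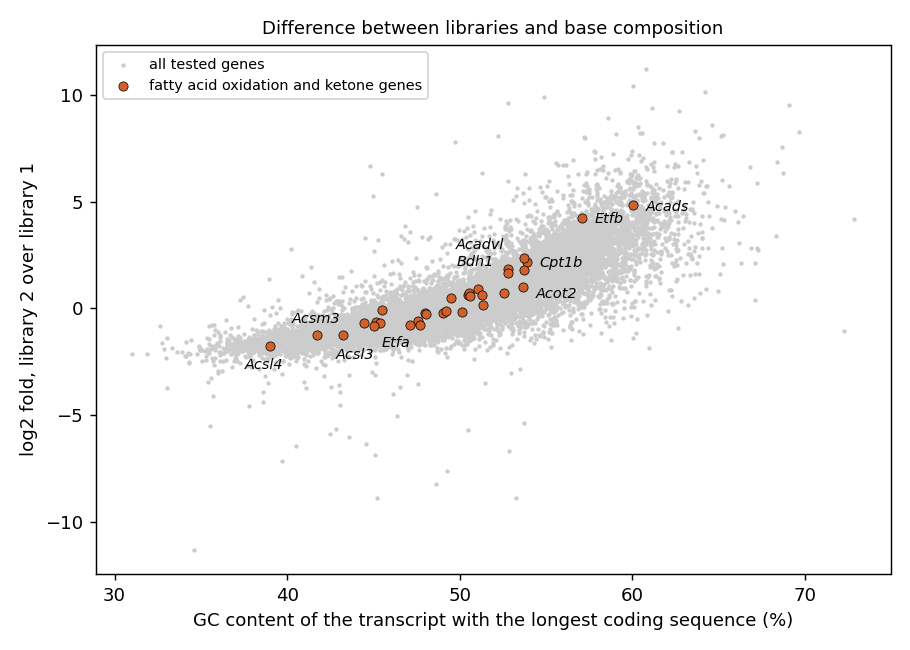
Log2 fold of library 2 over library 1 against GC content of the transcript with the longest coding sequence, for all tested genes with a GC value (grey) and the 32 genes (filled). The 32 genes run from Acsl4 at 39.0% GC and -1.75 to Acads at 60.1% GC and 4.84.

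The transcript with the largest share of TPM differed in 7 of 23 genes with at least 2 transcripts and a mean of at least 10 TPM (31.8% of 3520 such genes). A share differed by at least 20 points in 9 of 23 (47.5% of such genes). The 7 genes were Acads, Acsl3, Acsm3, Cpt2, Echs1, Eci2 and Hadhb. By share of expected counts instead of TPM the main transcript differed in 4 of 23 (24.6% of such genes): Acsm3, Cpt2 and Eci2 of these 7, and Bdh1.

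Several of the transcripts that led in library 1 were short. Acads-204, of 532 bases, held 67.2% of Acads in library 1 and 1.28% in library 2, on 24.2 and 7.79 counts. Acsl3-204, of 502 bases, held 51.2% and 0%. An Echs1 transcript of 803 bases that M21 does not name held 53.3% and 0%, and Echs1-201, of 1557 bases, held 44.4% and 98.9%. The unnamed transcript passes the 50% length limit used below, so it does not count as short there. Etfdh kept its main transcript, but Etfdh-202 held 42.2% in library 1 and 1.04% in library 2, with a deposited posterior SD of 255 counts on 3799 in library 1. In 4 of the 32 genes short transcripts, under 50% of the length of the one with the longest coding sequence, held more than 50% of TPM in library 1: Acsl3, Cpt2, Acads and Hadhb. In library 2 they did so in 0 of 32. Among 4550 nuclear protein-coding genes of at least 10 TPM on average the percentages were 13.8% and 7.90%.

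Hadha and Bdh1 differed between long transcripts. Hadha-201, of 2554 bases, held 89.6% in library 1 and 68.0% in library 2, and M21 types it as a processed transcript. Bdh1-201 held 52.8% and 81.9%, and the longer Bdh1-203 held 47.2% and 15.8%. At the gene level the deposited posterior SD of the count was 0 in both libraries for 26 of the 32 genes, so the division concerns transcripts within a gene.

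**Figure D5:**
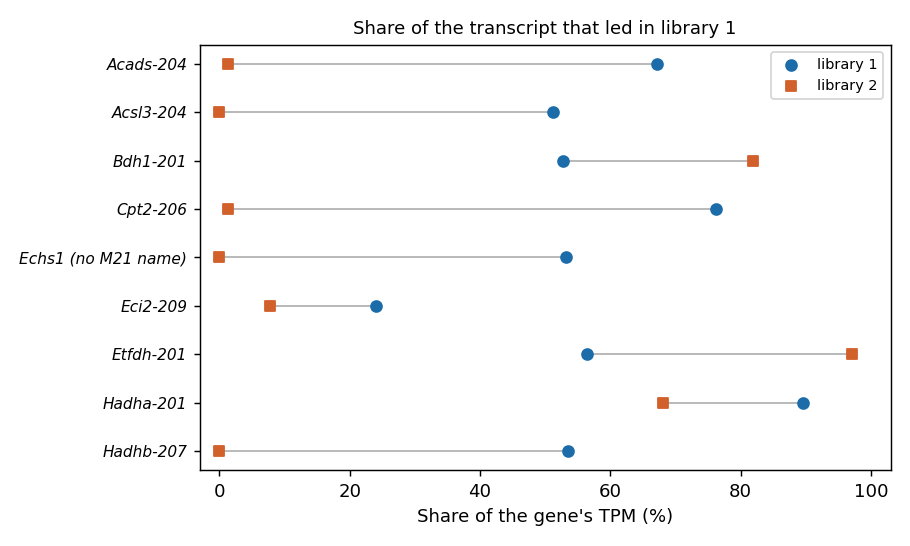
Share of the gene's TPM held in library 1 (circles) and library 2 (squares) by the transcript that led in library 1, for the 9 genes with a share differing by at least 20 points. Acads-204, Acsl3-204, Cpt2-206, the unnamed Echs1 transcript and Hadhb-207 led in library 1 and were at or near 0 in library 2.

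Other genes of the pathway were taken from a list of 42, of which 39 were tested. By the same call 15 were higher in library 2 (32.7% of all tested genes), 8 were lower (23.8% of all) and 16 were not called, and 36 had at least 1 TPM in both libraries. Slc27a2, a fatty acid transporter and synthetase gene, had 395 TPM in library 1 and 918 TPM in library 2. Its log2 fold on scaled counts was -0.12, not called. The related Slc27a5 had 145 TPM and 1105 TPM, a log2 fold of 2.67, called higher. Hsd17b10 had 64.8 TPM and 185 TPM, a log2 fold of 0.62, not called. The liver transcription factor gene Creb3l3 had 20.1 TPM and 156 TPM, a log2 fold of 1.98, called higher.

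Of the list, the highest folds called were those of Sirt3, a mitochondrial deacetylase (3.96), Acsf3, a malonyl-CoA synthetase (3.82), and Mlycd, malonyl-CoA decarboxylase (3.51). The lowest were those of Cd36, a fatty acid receptor (-1.59), Slc16a7, a monocarboxylate carrier (-1.47), and Acot9, an acyl-CoA thioesterase (-1.43). Fgf21, Cpt1c and Acsl6 were below 1 TPM in both libraries.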

How the data were processed

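Per the labels, polyA RNA of 1 liver was sequenced as 2 technical libraries, which form 1 group. The deposited gene and transcript tables give expected counts (estimated, not normalised), TPM, FPKM and isoform shares in percent of a gene's TPM, on mm10 with annotation M4 per the file headers and descriptions. No source used here names the aligner, the quantifier or the strand setting. Symbols, coordinates, coding sequences and GC content came from GENCODE M21 (GRCm38), and promoters from RefSeq (GRCm38.p6).

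After rounding of the expected counts, genes under 20 counts in sum were dropped and TMM scaling was done in edgeR 4.0.16 (factors 0.818 and 1.22). With 1 library on each side edgeR's quasi-likelihood test cannot estimate a spread. Genes were therefore compared by a two-sided exact binomial test (SciPy 1.17.1), adjusted by Benjamini-Hochberg over 12728 genes. Log2 folds use a prior count of 0.5. Intervals are exact at 95% and cover counting error only. The test was tested on simulated data. Those data held counting error only, with no GC or library effect, so they do not show how the test behaves on these libraries. DESeq2 1.42.0 gave alternative size factors.

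The 32 genes and all lists were chosen with earlier results of these data known. All 32 are named. From the list of other genes the rule named the 6 highest by mean TPM, up to 3 below 1 TPM in both libraries, and the 3 highest and 3 lowest folds among those called; some genes under this rule are not reported here. Settings added after the data were seen are 3 definitions of the transcripts counted for a gene, tried in turn, and GC content of the longest transcript. Of the 3, protein-coding type was given up because M21 types the main Hadha transcript otherwise. The share of the longest transcript was given up because that transcript is barely used in Hadhb, Echs1 and Hadh. The first GC values came from the longest transcript through an error in reading coding ranges, later corrected.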

Additional observations from a re-analysis of the deposited data

How the results depend on the processing

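DESeq2 size factors, a prior count of 5 and leaving out mitochondrially encoded genes changed no call or direction of the 32 genes. Total-count scaling, which raised the log2 folds of the 32 genes by 0.56 to 0.58, gave 15 genes higher and 1 lower with a median log2 fold of 0.63, and reversed the sign of 6 log2 folds, here with their new values: Acsl1 0.36, Acsm5 0.46, Slc25a20 0.42, Acadm 0.38, Acad11 0.30 and Acat1 0.50. The ratio of deposited TPM gave 14 higher and 1 lower with a median of 0.76, and reversed 12: Acsl1 0.69, Acsl5 0.31, Acsm5 0.76, Slc25a20 0.75, Cpt2 -0.054, Acadl 0.24, Acadm 0.72, Acad11 0.52, Decr1 0.18, Etfa 0.10, Etfdh 0.074 and Acat1 0.98. Subtracting the GC curve left 3 higher and 0 lower and reversed 11: Acsm3 0.068, Cpt1a -0.35, Cpt2 -0.21, Acadl 0.18, Acadm 0.10, Acad11 0.029, Hadhb 0.11, Decr1 0.24, Etfa 0.036, Acat1 0.69 and Acot2 -0.28. With GC content of the longest transcript it left 2 higher and 0 lower, ended the call of Acadvl (0.92) as well, and reversed 12: Acsl1 0.53, Cpt1a -0.60, Cpt2 -0.42, Acadl 0.037, Acad11 0.93, Hadha -0.16, Hadhb 0.83, Hadh -0.088, Decr1 0.11, Etfdh 0.15, Acat1 0.55 and Acot2 -0.46. A fold threshold of 0.5 gave 14 higher and 10 lower (39.4% and 35.5% of tested genes). A count minimum of 200 reversed the median log2 fold to -0.025 and Acat1 to 0.020. The 3 definitions of counted transcripts, all added after values were seen, each added Cpt2 to the calls. Protein-coding type gave 10 higher and 3 lower (35.1% and 22.6% of genes tested), adding Hadha and Echs1 too. At least 50% of the longest transcript gave 8 higher and 3 lower of 31 tested (32.8% and 24.3% of genes), with Hadhb untested, a median of -0.099, a summed share of 0.671% and Echs1 at -0.63. At least 50% of the transcript with the longest coding sequence gave 8 higher and 3 lower (33.1% and 23.9% of genes), and a summed share of 0.749%. By expected counts the summed share was 0.853%, and the main transcript differed in 4 genes. The cause of these changes was not tested. No paired analysis was possible because both libraries belong to 1 group. Depth limits Cpt1b, Slc22a4, Acot2 and Oxct1 most.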

Other observations

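The deposited TPM of a gene lay above the upper bound of its own deposited credibility interval for 11 of the 32 genes in library 1 and 22 in library 2. These bounds were not used. The same count was not made over all genes, so it cannot be told whether the 32 genes differ from the rest.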
